A study of Mus musculus with 4 samples.

Results

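The 9 genes of lymphoid recirculation and T-cell quiescence described here were measured in TfR1-deficient and WT Treg cells: the chemokine receptors *Ccr7* and *Cxcr4*, the sphingosine-1-phosphate receptors *S1pr1* and *S1pr4*, the transcription factors *Klf2*, *Foxo1*, *Foxp1* and *Satb1*, and *Igfbp4*, which encodes a secreted insulin-like growth factor binding protein. They were chosen by name, as 9 of the 47729 genes listed in the count table, and all 9 were found and passed the filter on low counts. A recirculating T cell enters a lymph node with the help of CCR7, which reads the chemokines of the T zone, and leaves it along a gradient of sphingosine-1-phosphate sensed by S1PR1. FOXO1 holds this program in place in resting cells, in part through KLF2, which activates *S1pr1*, and CD69 takes S1PR1 off the cell surface. Central Treg cells keep high CCR7 and stay in spleen and lymph nodes, whereas effector Treg cells lower it and take up receptors for tissues.

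RNA was sequenced from 4 libraries of CD4+CD25+YFP+ Treg cells sorted from adult female mice on the C57BL/6 background, 2 of them labelled TfR1-deficient (*Tfrc* fl/fl, with *Foxp3* YFP-Cre/+) and 2 labelled WT (*Tfrc* +/+, also with *Foxp3* YFP-Cre/+). Both genotypes carry the same Cre, made from a single *Foxp3* allele on the X chromosome, so in these females only part of the Treg cells express it, and YFP selects that part. The labels name the spleen as the source, while a legend of the study names spleens and lymph nodes, so the share of cells from each organ, which bears on homing receptors, is not known here. The number of mice behind a library is not given either, so p-values measure the spread between these libraries. *Tfrc*, the gene deleted by Cre, was counted at 50.8 and 54.1 CPM (read counts relative to the TMM-scaled library size) in WT and at 56.1 and 48.3 CPM in the TfR1-deficient-labelled libraries, so counts summed over the gene, which can include exons outside the deleted part, did not separate the genotypes and each direction given here rests on the labels.

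The libraries held from 10841939 to 17278448 counts. Markers of T and Treg cells were counted in all of them, and the 11 such genes summed to 7642 and 8064 CPM in WT and 7086 and 6127 CPM in the TfR1-deficient-labelled libraries. A list of 20 macrophage and myeloid markers was high in WT replicate 1 (a sum of 1221 CPM) and TfR1-deficient replicate 2 (3630 CPM) and low in the other two libraries (102 CPM in WT replicate 2, 74.5 CPM in TfR1-deficient replicate 1). A list of 25 proliferation genes split the libraries in the same way, at 3264 and 3156 CPM against 1424 and 1588 CPM. Of 11 B-cell markers found, *Ms4a1* stayed under 0.5 CPM in every library (its highest value was 0.469 CPM) and *Cd79b* stood at 24.1 to 38.5 CPM. Most of the sum of the list, from 1111 to 1580 CPM, was *Ighm*, at 1077 CPM or more in each. The dendritic-cell markers summed to between 55.5 and 59.4 CPM, most of it *Bst2*, at 47.6 to 51.6 CPM. Those of CD8 T cells, NK cells and platelets summed to between 1.88 and 12.6 CPM. The erythroid markers ranged from 17.6 to 288 CPM, and the endothelial ones summed to between 298 and 341 CPM. Of these, *Pecam1*, which T cells also express, stood at 297 to 312 CPM, *Kdr* was at 0 and *Cdh5* at no more than 0.281 CPM, while *Stab2* was higher in the macrophage-rich libraries (6.30 CPM for WT replicate 1, 28.5 CPM for TfR1-deficient replicate 2) than elsewhere (0.375 CPM for WT replicate 2, 0.231 CPM for TfR1-deficient replicate 1).

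In most of the recirculation and quiescence genes the difference between genotypes was within the spread between replicates. *Satb1* was the member with the clearest difference, 1.43 times higher in the TfR1-deficient-labelled libraries, and *Igfbp4* was next at 1.37 times with more spread. For the homing and egress receptors *Ccr7*, *S1pr1* and *S1pr4* the point estimates lay between 0.852 and 1.11 times the WT level. Their 95% intervals from edgeR were wider. They ran from 0.734 to 1.22 times for *Ccr7*, 0.791 to 1.55 times for *S1pr1* and 0.602 to 1.21 times for *S1pr4*. With edgeR's quasi-likelihood test and Benjamini-Hochberg adjustment over 12536 genes, 0 of the 9 passed an adjusted p-value of 0.05 together with a minimum change of 0.5 on the log2 scale, and neither did any other gene (0% of all tested). DESeq2 called 0 of the 9 as well, while it called 7 other genes higher and 37 lower. At an unadjusted p-value under 0.05 with the same minimum change, *Satb1* alone was higher and 0 members were lower, where 1.6% of all tested genes were higher and 2.48% lower (4.08% in either direction). The median log2 fold change of the 9 was 0.15, beside 0.01 for all tested genes, with 6 members above 0 and 3 below. The spread between replicates limits these comparisons: in 6 of the 9 genes the 2 WT libraries differed from each other by more than the genotypes did, and so did the 2 libraries labelled TfR1-deficient in 6. The share of all tested genes with such a spread was not counted, so this is not given as a trait of the members.

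**Figure D1:**
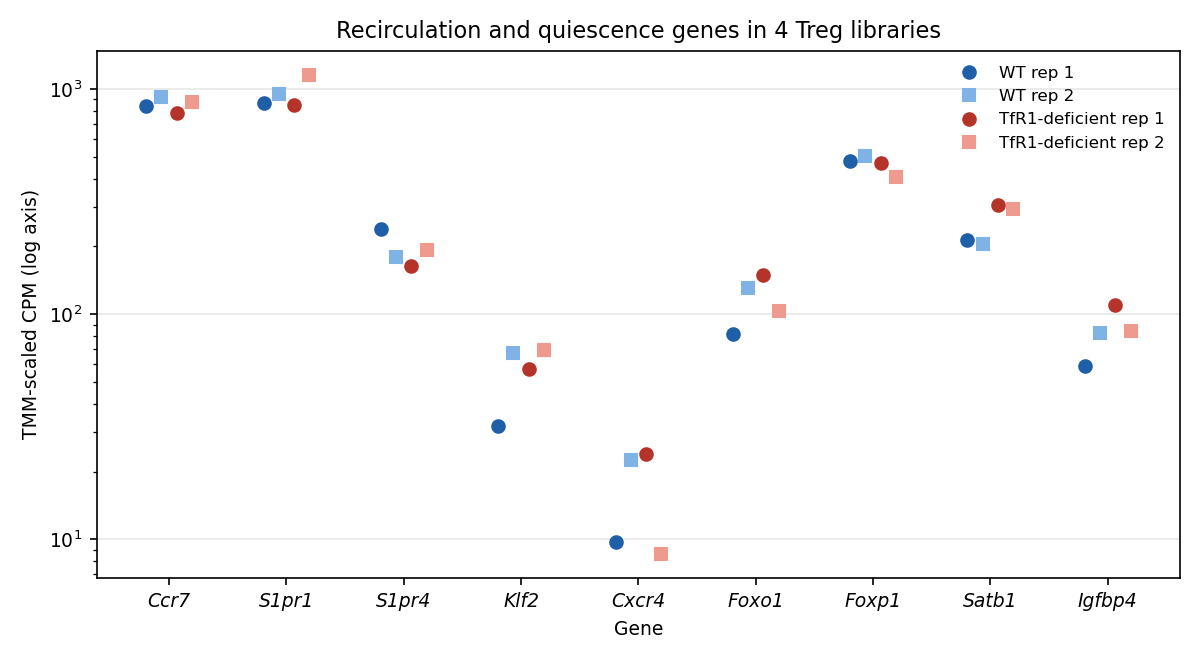
TMM-scaled CPM (log axis) of the 9 genes in each library, with blue points for WT, red points for TfR1-deficient, circles for replicate 1 and squares for replicate 2. The 2 red points of *Satb1* (305 and 294 CPM) lie above its 2 blue points (213 and 206 CPM), while the colours mix for *Ccr7*, *S1pr1*, *S1pr4*, *Klf2*, *Cxcr4* and *Foxo1*.

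*Satb1* encodes a chromatin organizer of the nucleus that shapes gene loops in thymocytes and is kept low in mature Treg cells by Foxp3. It lies on chromosome 17 (51736187 to 51833290, GRCm38.p6) and was counted at 213 and 206 CPM in WT and at 305 and 294 CPM in the TfR1-deficient-labelled libraries. Both of the latter were above both WT libraries, and the distance between replicates was small in each genotype. The mean was 209 ± 5.14 CPM in WT and 299 ± 8.11 CPM in the other genotype (SD, 2 libraries each), which is 0.52 on the log2 scale (standard error 0.13, 95% interval 0.18 to 0.85). The unadjusted p-value in edgeR's model was 0.010 and the adjusted one 0.911; DESeq2 gave an adjusted p = 0.148, and with 2 libraries against 2 an exact permutation test for 1 gene has 0.33 as its smallest p. The unadjusted p-value in edgeR's model rose above the threshold when WT replicate 2 was omitted (0.065, at a log2 difference of 0.49) or TfR1-deficient replicate 1 was omitted (0.052, at 0.52). Its log2 fold change was 0.57 between the libraries poor in macrophage and proliferation markers (TfR1-deficient replicate 1 against WT replicate 2) and 0.46 between those rich in them (TfR1-deficient replicate 2 against WT replicate 1), with 1 library against 1 in each pair and no test. In bulk RNA, a larger share of cells with *Satb1* and more *Satb1* RNA per cell cannot be told apart.

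The level of *Satb1* was also set against other genes of resting T cells. Relative to *Foxp1* in the same library it stood at 0.444 and 0.408 in WT and at 0.651 and 0.720 in the TfR1-deficient-labelled libraries, as ratios of CPM. Relative to *Lef1*, a partner of TCF-1 in resting T cells, the ratios were 0.644 and 0.566 against 0.803 and 0.732. Relative to *Foxo1* the genotypes overlapped, at 2.59 and 1.57 in WT against 2.05 and 2.85. The ratio to *Foxo1* thus did not separate the genotypes, while the ratios to *Foxp1* and *Lef1* did. For *Foxp1* this adds nothing new: both TfR1-deficient-labelled libraries were above WT in *Satb1* and below WT in *Foxp1*, so the ratio had to separate. All of these ratios include *Satb1*, which separated the genotypes by itself, so they are not separate evidence. An exact permutation test could not go below 0.33 for any of these ratios.

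*Igfbp4*, a gene that marks naive and resting CD4 T cells, lies on chromosome 11 (99040005 to 99052655), 91.5 kb from *Ccr7* (99144199 to 99155077) with *Tns4* between them. It was counted at 58.9 and 82.4 CPM in WT and at 109 and 84.0 CPM in the TfR1-deficient-labelled libraries. The groups did not overlap, although TfR1-deficient replicate 2 was only just above WT replicate 2. Its log2 difference was 0.45 (standard error 0.23, 95% interval -0.14 to 1.05, adjusted p = 0.911 in edgeR), and it was 0.25 without WT replicate 1 and 0.71 without WT replicate 2. It was the lower of the replicates in WT replicate 1 and in TfR1-deficient replicate 2, the libraries with more macrophage and proliferation RNA, whose part in its level was not tested. Within the pairs of like libraries its log2 differences were 0.41 and 0.51. Its neighbour *Ccr7* did not share the pattern.

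*Ccr7*, the receptor for lymph node entry, was counted at 838 and 918 CPM in WT and at 781 and 880 CPM in the TfR1-deficient-labelled libraries. All 4 values lay close together and the groups overlapped. Its mean was 878 ± 56.5 CPM in WT and 831 ± 69.5 CPM in the other genotype (SD, 2 libraries each), a difference of -0.08 on the log2 scale (standard error 0.14, adjusted p = 0.973 in edgeR). The 95% interval of -0.45 to 0.29 corresponds to between 0.734 and 1.22 times the WT level.

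*S1pr1* (chromosome 3, 115710433 to 115715055), the receptor for exit from lymphoid organs, was counted at 866 and 949 CPM in WT and at 854 and 1159 CPM in the TfR1-deficient-labelled libraries. TfR1-deficient replicate 2 stood above the rest, and TfR1-deficient replicate 1 was the lowest of the 4. The log2 fold change was 0.15 (standard error 0.19, 95% interval -0.34 to 0.64, adjusted p = 0.956 in edgeR), and it was -0.09 without TfR1-deficient replicate 2. *S1pr4* (chromosome 10, 81497745 to 81500137), a receptor for the same lipid found mainly on blood and lymphoid cells, was at 239 and 180 CPM in WT and at 164 and 194 CPM in the TfR1-deficient-labelled libraries. The groups overlapped, and WT replicate 1 was the highest. Its log2 difference was -0.23 (standard error 0.20, adjusted p = 0.950 in edgeR), and 0.0091 without WT replicate 1.

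*Cd69*, whose protein binds S1PR1 and removes it from the surface, was at 1186 and 983 CPM in WT and at 662 and 1004 CPM in the TfR1-deficient-labelled libraries (log2 fold change -0.38, standard error 0.24, adjusted p = 0.934 in edgeR). The value for *Cd69* was -0.078 without TfR1-deficient replicate 1 and -0.72 without TfR1-deficient replicate 2. The ratio of *S1pr1* to *Cd69* CPM was 0.731 and 0.965 in WT and 1.29 and 1.15 in the TfR1-deficient-labelled libraries. The ratio was thus higher in both libraries of the latter genotype, with the same limit of 0.33 for an exact permutation test. The ratio of *S1pr1* to *S1pr4* overlapped between genotypes (3.62 and 5.27 in WT, 5.22 and 5.99 in the TfR1-deficient-labelled libraries). That of *Ccr7* to *S1pr1* was lower in both TfR1-deficient-labelled libraries (0.968 and 0.968 in WT, against 0.915 and 0.759).

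*Klf2* (chromosome 8, 72319062 to 72321654), the zinc-finger factor that activates *S1pr1*, was counted at 31.8 and 66.9 CPM in WT and at 57.0 and 69.5 CPM in the TfR1-deficient-labelled libraries. WT replicate 1 stood alone below the other libraries, which held similar levels. The log2 fold change of 0.36 (standard error 0.37, adjusted p = 0.955 in edgeR) rested on that library, and without it the value was -0.06. The 2 WT libraries differed by -1.07 on the log2 scale in *Klf2* and by -0.13 in *S1pr1* (replicate 1 minus replicate 2).

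*Foxo1* (chromosome 3, 52268337 to 52350109), the forkhead factor that upholds *Klf2* and *Il7r* in resting T cells, was at 82.0 and 131 CPM in WT and at 149 and 103 CPM in the TfR1-deficient-labelled libraries. Within each genotype the library richer in macrophage and proliferation RNA had the lower value. The difference between replicates, -0.67 on the log2 scale in WT (replicate 1 minus replicate 2) and -0.53 in the other genotype (replicate 2 minus replicate 1), exceeded that between genotypes, 0.24 (standard error 0.30, adjusted p = 0.955 in edgeR). *Foxp1* (chromosome 6, 98925342 to 99522746), a forkhead factor that keeps naive T cells quiescent, was at 480 and 503 CPM in WT and at 468 and 408 CPM in the TfR1-deficient-labelled libraries. Both values of the latter were below both of WT by a small distance, a log2 difference of -0.17 (standard error 0.14, 95% interval -0.53 to 0.20, adjusted p = 0.950 in edgeR). Its annotated span contains 5 RefSeq non-coding genes, of which none was among the genes tested, and the strand setting of the counting is not given in the sources used here.

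*Cxcr4* (chromosome 1, 128588199 to 128592299), the receptor for CXCL12 that guides cells to bone marrow and lymphoid stroma, was the least expressed member. It was counted at 9.74 and 22.6 CPM in WT and at 24.0 and 8.61 CPM in the TfR1-deficient-labelled libraries, from 118 to 417 counts in a library. The low and high libraries did not follow genotype: WT replicate 1 and TfR1-deficient replicate 2 were low, the same libraries that were rich in macrophage and proliferation markers. The log2 fold change was 0.02 with a standard error of 0.62 (adjusted p = 0.999 in edgeR), and the 95% interval, -1.57 to 1.61, spans from 0.336 to 3.05 times the WT level. That order, with WT replicate 1 below replicate 2 and TfR1-deficient replicate 2 below replicate 1, was found in 4 of the 9 members (*Cxcr4*, *Foxo1*, *Igfbp4* and *Foxp1*) and in 35.9% of all tested genes. The part of macrophage and proliferation RNA in these levels was not tested.

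**Figure D2:**
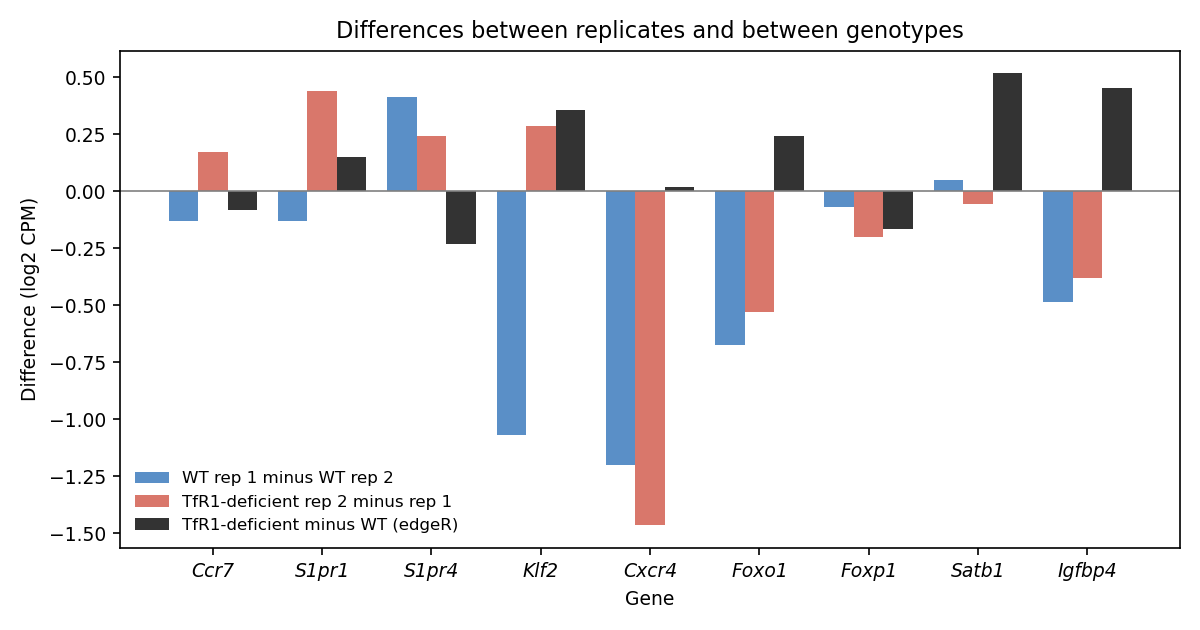
Differences in log2 CPM for each gene, with blue bars for WT replicate 1 minus replicate 2, red bars for TfR1-deficient replicate 2 minus replicate 1, and black bars for the edgeR log2 fold change between genotypes. For *Satb1* the black bar (0.52) exceeds both replicate differences (0.05 and -0.06), whereas for *Cxcr4* the replicate differences of -1.20 and -1.46 exceed a genotype difference of 0.02.

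In 2 of the 9 genes both libraries labelled TfR1-deficient were above both WT libraries (*Satb1* and *Igfbp4*) and in 1 (*Foxp1*) both were below. Over all tested genes the shares were 16% above and 18.9% below (34.9% in either direction), so the share among the members is near the background. The 95% intervals bound what these libraries leave possible: in 6 of the 9 genes (*Ccr7*, *S1pr1*, *S1pr4*, *Foxo1*, *Foxp1* and *Satb1*) the interval of the log2 fold change lay inside -1 to 1, and in *Klf2*, *Igfbp4* and *Cxcr4* it reached past it. That of *Foxo1* was only just inside, at -0.51 to 0.995. How many of all tested genes had an interval inside these bounds was not counted. These intervals come from edgeR's fit and rest on 2 libraries a genotype.

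**Figure D3:**
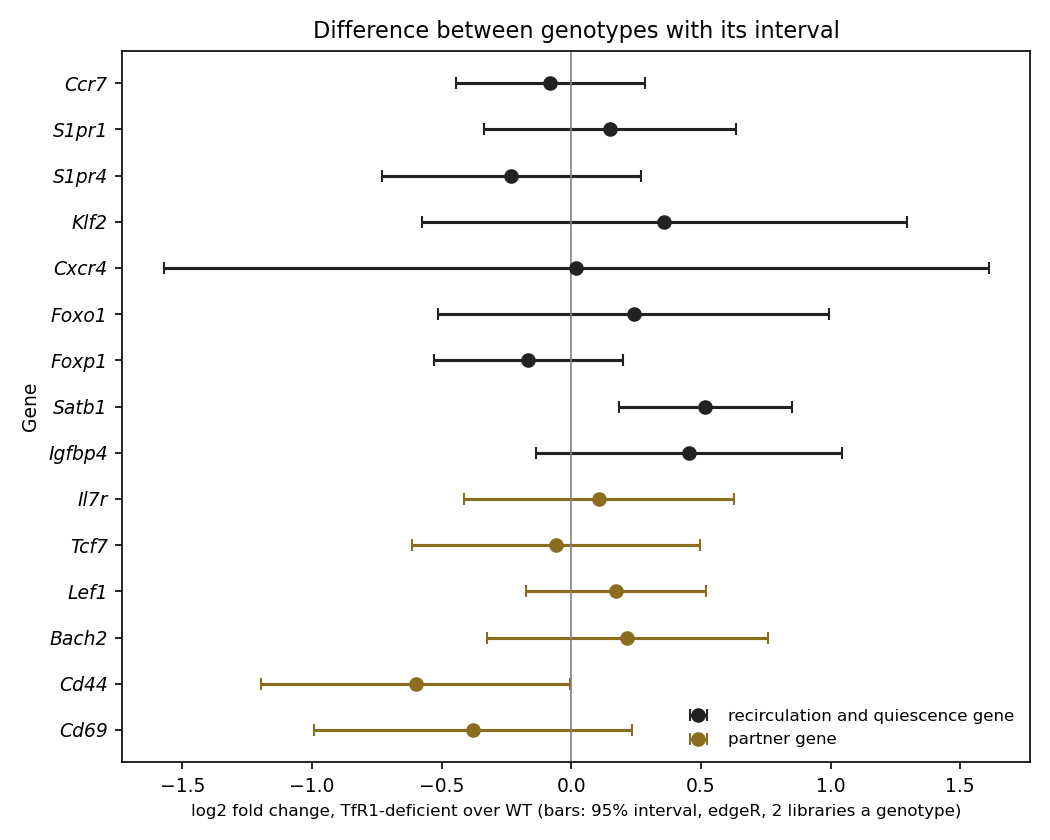
Log2 fold change of TfR1-deficient over WT libraries with its 95% interval from edgeR (2 libraries a genotype), for the 9 genes in black and 6 partner genes in brown. Among the black intervals that of *Satb1* (0.18 to 0.85) is the one that leaves out 0, and among the brown ones that of *Cd44* (-1.20 to -0.0034).

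Levels between genes were compared per kilobase of exon, with exon lengths from GENCODE vM1. Each length was the union of all annotated exons of the gene, from 1230 bases for *S1pr4* to 11934 for *Foxp1*. Isoforms in use can be shorter, and the annotation release behind the counts is not given, so the order between genes is approximate. *Ccr7* was the highest, at 395 to 464 CPM per kb over the 4 libraries, between rank 91 and rank 105 of the 11604 tested genes with a length. *S1pr1* followed at 282 to 383 CPM per kb, and *S1pr4* at 133 to 195 CPM per kb. These 3 ranges did not overlap, and the order held in all 4 libraries. The other genes lay lower, with *Foxp1* at 34.2 to 42.2, *Igfbp4* at 24.9 to 46.3, *Klf2* at 17.2 to 37.6, *Satb1* at 21.9 to 32.5 and *Foxo1* at 14.8 to 26.8 CPM per kb. Neighbours in this order overlapped in their ranges, while *Foxp1* was above *Satb1* and *Foxo1* in every library. *Cxcr4* was at 4.76 to 13.3 CPM per kb and below *Foxo1* in every library.

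Partner genes of the central Treg program gave 0 calls at the adjusted p-value in edgeR, and *Cd44* alone had an unadjusted p-value under 0.05 (0.049 in its model). *Lef1*, a factor that maintains resting T cells together with TCF-1, was at 331 and 363 CPM in WT and at 380 and 401 CPM in the TfR1-deficient-labelled libraries, a log2 difference of 0.17 (standard error 0.14, adjusted p = 0.950 in edgeR). *Tcf7*, which encodes TCF-1, was at 446 and 616 CPM against 568 and 453 CPM, and the groups overlapped. *Bach2*, a repressor of effector differentiation, was 0.22 higher on the log2 scale (standard error 0.21), and *Il7r*, the receptor for the survival cytokine IL-7, was 0.11 higher (standard error 0.21), with overlapping groups in both. *Foxp3* was at 194 and 130 CPM in WT and at 122 and 114 CPM in the TfR1-deficient-labelled libraries (log2 fold change -0.46, standard error 0.22, adjusted p = 0.911 in edgeR), and its difference was -0.13 without WT replicate 1 and -0.72 without WT replicate 2. *Cd44*, the adhesion receptor that rises on effector cells, was at 132 and 117 CPM in WT and at 65.4 and 99.2 CPM in the TfR1-deficient-labelled libraries, a log2 difference of -0.60 (standard error 0.23, adjusted p = 0.911 in edgeR).

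Lists of related genes gave 0 calls at the adjusted p-value in the unpaired edgeR fit with the count filter. In the machinery of lymph node entry and of egress (30 of 32 genes tested, median log2 fold change -0.08), 0 genes were higher and 2 lower at the unadjusted p-value with the minimum change, the G-protein regulator *Rgs1*, which damps chemokine receptor signalling (-0.85, standard error 0.31), and *Tln1*, which encodes the integrin activator talin (-0.63, standard error 0.17). *Rasgrp2*, the exchange factor that activates Rap1 ahead of integrins, was at 219 and 183 CPM in WT and at 269 and 290 CPM in the TfR1-deficient-labelled libraries, just under the minimum change (0.47, standard error 0.16, unadjusted p = 0.028 in edgeR's model). The median of this list was -0.071 without WT replicate 1 and -0.14 without WT replicate 2. It was -0.089 without TfR1-deficient replicate 1 and -0.11 without TfR1-deficient replicate 2. With no count filter, edgeR called 2 of 31 lower at the adjusted p-value.

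In the list of central and resting T-cell genes (38 tested, median -0.0017) the count was 0 in both directions, with 19 genes above 0 and 19 below. The survival gene *Bcl2* was at 496 and 519 CPM in WT and at 676 and 677 CPM in the TfR1-deficient-labelled libraries (0.42, standard error 0.13, unadjusted p = 0.022 in edgeR's model), under the minimum change. *Cdkn1b*, which encodes the cell-cycle inhibitor p27, was at 99.8 and 93.8 CPM in WT and at 60.0 and 78.0 CPM in the other genotype (-0.49, standard error 0.18). In the FOXO pathway list (32 tested, median 0.0044), 1 gene was lower at the unadjusted p-value, *Inpp5d*, which encodes an inositol phosphatase (-0.57, standard error 0.19). That count was 0 when either WT replicate was omitted, 2 without TfR1-deficient replicate 1 and 3 without TfR1-deficient replicate 2.

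Genes in a list of receptors for tissues and inflamed sites were mostly lower in the TfR1-deficient-labelled libraries. The list is broad, as it also holds *Klrg1*, *Cxcr5* and the partner gene *Cd44*. Of 17 tested, 10 were lower by unadjusted p-value and minimum change and 0 were higher, and the median log2 fold change was -0.85. *Cd44* is among these 10, and the share of all tested genes that were lower was 2.48%. *Itgae*, which encodes the integrin CD103, was at 59.1 and 47.1 CPM in WT and at 18.3 and 10.6 CPM in the TfR1-deficient-labelled libraries (-1.87, standard error 0.32). At the adjusted p-value DESeq2 called 4 of the 17 lower, and edgeR with no count filter called 9 lower and 1 higher of 21. The unadjusted count without WT replicate 1 was 6 of 18, and the median was -1.32 without TfR1-deficient replicate 2. Whether this list and the recirculation genes differ in their response was not tested. In the list of immediate-early and sort stress genes, which the handling of cells can induce, 1 gene of 21 was lower (*Hspa1b*, -1.95, standard error 0.67) and the median was -0.27. *Hspa1b* was near the floor, at 1.72 and 1.97 CPM in WT and at 0.634 and 0.292 CPM in the TfR1-deficient-labelled libraries. The count of lower genes was 0 in DESeq2, with the replicate block and with a filter of 10 counts in every library, which *Hspa1b* did not pass. It was 2 with no count filter. With no count filter, with the filter of 10 counts, with other scalings and in DESeq2, 1 gene was higher. The median of the list was -0.51 without TfR1-deficient replicate 2. It was -0.48 between TfR1-deficient replicate 1 and WT replicate 2, and 0.080 between TfR1-deficient replicate 2 and WT replicate 1. *Ier2*, an early response gene of this list, was at 549 and 433 CPM in WT and at 662 and 715 CPM in the TfR1-deficient-labelled libraries (0.49, standard error 0.17), and *Egr2* was at 128 and 144 CPM against 108 and 102 CPM (-0.37, standard error 0.14). The proliferation list gave 0 in both directions at a median of 0.06 that moved with single libraries: it was 1.11 without WT replicate 1, -0.53 without WT replicate 2, 0.54 without TfR1-deficient replicate 1 and -0.93 without TfR1-deficient replicate 2, where 1 gene was lower.

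**Figure D4:**
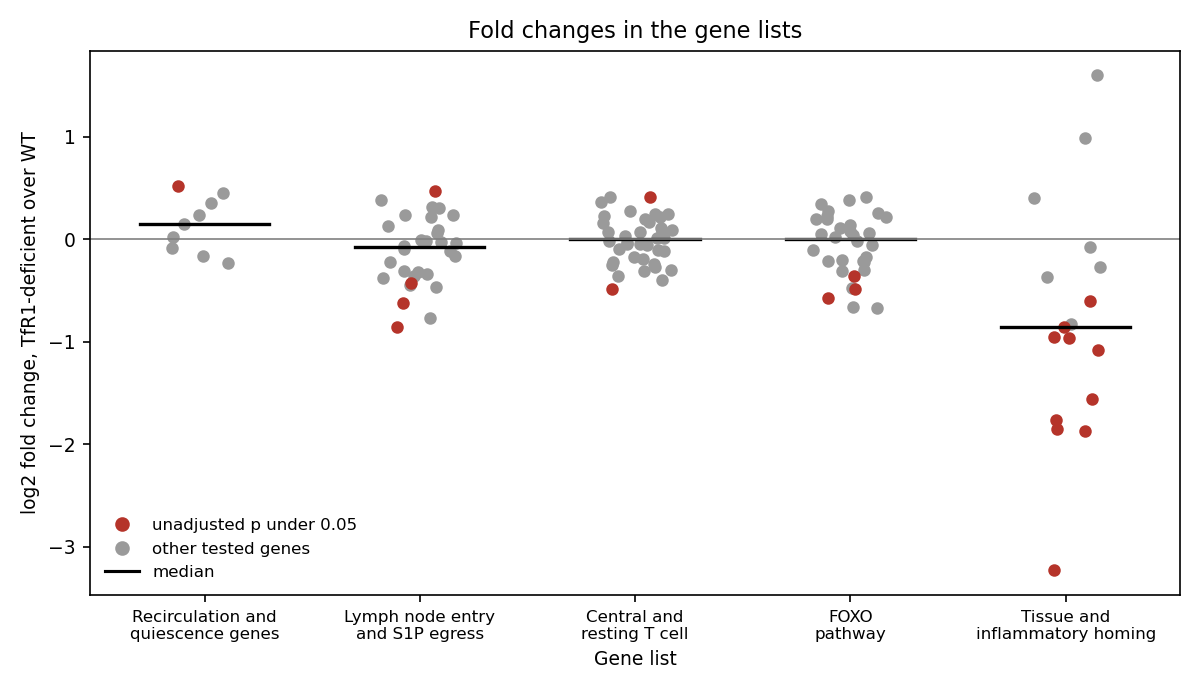
Log2 fold change of TfR1-deficient over WT libraries for each tested gene (points, red for an unadjusted p-value under 0.05) in 5 lists, with a black line at the median of each list. The medians of the first 4 lists lie between -0.08 and 0.15, and that of the tissue and inflammatory homing receptors lies at -0.85.

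The genes whose pattern over the 4 libraries lay nearest to each member were found by the root mean square difference of centred log2 CPM. For *Satb1* this was *Tlr7* (31.6 and 29.2 CPM in WT, 44.1 and 43.4 CPM in the TfR1-deficient-labelled libraries, at a difference of 0.025), and for *Igfbp4* it was *Lfng* (67.0 and 94.4 against 125 and 96.4 CPM, at 0.0051). *Ptk2b* lay nearest to *S1pr4* (0.012), *Pbrm1* to *Foxo1* (0.011), *Setd1a* to *Ccr7* (0.011), *Ankrd46* to *Foxp1* (0.0041) and *Ngfrap1* to *S1pr1* (0.016). *Klf2* and *Cxcr4* had nearest genes at 0.046 and 0.045, with no more than 1.84 CPM in any library. The members did not lie close to each other by this measure: the nearest pair was *Foxo1* and *Igfbp4*, at 0.134, with 459 tested genes nearer to *Foxo1* and 423 nearer to *Igfbp4*. With 4 libraries many genes share a pattern, so nearness is given as a description.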

How the data were processed

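Treg cell RNA was measured in 2 WT libraries and 2 labelled TfR1-deficient, grouped by their titles. The authors deposited raw counts, 1 whole number for each Ensembl gene and library. The submitters' processing notes name Trim Galore 0.6.7, STAR 2.7.9a, featureCounts and mm10, whereas the methods name mm9. Strand setting, annotation release and treatment of multi-mapping reads are not given in the sources used here. Of 47729 identifiers, 32799 had a symbol, and 5 list or marker genes were matched by RefSeq synonyms. Positions are from RefSeq on GRCm38.p6.

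Genes passing filterByExpr (12536) were TMM-scaled. The quasi-likelihood test of edgeR 4.0.16 (R 4.3.3) compared the genotypes without covariates, using Benjamini-Hochberg adjustment and a minimum log2 change of 0.5 in either direction. Each standard error was obtained from the fold change and the F statistic, and log2 CPM had 2 as prior count. With totals of 10841939 to 17278448 counts, the spread between libraries sets the precision. Alternatives were DESeq2 1.42.0, other scaling factors, filters and minimum changes, a replicate block and the omission of each library, where a lone library is assumed to vary like the other genotype.

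The members and lists were chosen with earlier results of these data known. Named genes were the members, *Tfrc*, *Foxp3*, 7 partners, the 2 largest increases and decreases of each list at an unadjusted p-value under 0.05, and the gene nearest in pattern to each member. Reads and single exons were not analysed here, and some genes that this rule names are not reported here.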

Additional observations from a re-analysis of the deposited data

How the results depend on the processing

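In edgeR, 0 members were called higher and 0 lower at the adjusted p-value with other scalings, count filters and minimum changes, with the replicate block and without each library, and DESeq2 gave 0 as well. *Satb1* was past the unadjusted p-value in each of the fits with other scalings and filters and in DESeq2, while the count of higher members was 0 with the replicate block and with a minimum log2 fold change of 1. Without each library in turn that count ran from 0 (without TfR1-deficient replicate 1) to 2 (*Klf2* and *Igfbp4*, without WT replicate 2), where *Satb1* had an unadjusted p = 0.065 in edgeR's model and a log2 fold change of 0.49. The log2 fold change of *Satb1* itself ranged from 0.46 to 0.57 over the alternatives and its adjusted p from 0.011 (crossed pairing) to 0.9999 (replicate block). Members with groups that do not overlap numbered 2 to 4 above and 2 to 4 below without each library, where 4031 to 4735 of the 13076 to 13373 genes tested did not overlap in each direction.

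Libraries that share a replicate number did not deviate together (across genes, the correlation of their distances from the group mean was -0.61). WT replicate 1 and TfR1-deficient replicate 2 were both rich in macrophage and proliferation markers, so this value cannot show whether libraries of the same number were prepared together. The main fit used no pairing. With the replicate block, 70 genes were higher and 141 lower by unadjusted p, against 200 and 311 without it. A crossed pairing (WT replicate 1 with TfR1-deficient replicate 2), chosen after seeing the data, called 150 higher and 210 lower genes at the adjusted p-value, among them 1 member, *Satb1*. In the lists it called 3 lower for entry and egress, 2 lower for the FOXO pathway, 11 lower and 1 higher for tissue homing and 1 lower for immediate-early genes. DESeq2 called 7 higher and 37 lower genes, and edgeR without a count filter 167 and 95; the cause was not tested.

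The median log2 fold change of the members ran from -0.042 (without WT replicate 1) to 0.49 (without WT replicate 2), and was -0.10 between TfR1-deficient replicate 1 and WT replicate 2 and 0.33 between TfR1-deficient replicate 2 and WT replicate 1. Without each library in turn, *Ccr7* ran from -0.17 to 0.035, *S1pr1* from -0.091 to 0.39, *S1pr4* from -0.43 to 0.0091, *Klf2* from -0.062 to 0.99, *Foxo1* from -0.042 to 0.61, *Cxcr4* from -0.87 to 0.74, *Il7r* from -0.13 to 0.40, *Tcf7* from -0.26 to 0.19, *Foxp1* from -0.24 to -0.074, *Igfbp4* from 0.25 to 0.71, *Bach2* from 0.024 to 0.41, *Cd44* from -0.94 to -0.30, *Cd69* from -0.72 to -0.078, *Foxp3* from -0.72 to -0.13, *Rgs1* from -1.28 to -0.49, *Cdkn1b* from -0.69 to -0.28, *Ier2* from 0.32 to 0.69 and *Tfrc* from -0.087 to 0.094. *Cxcr4* was also at -0.041 with the replicate block and -0.033 with the crossed pairing. *Tfrc* changed sign near 0 with DESeq2 (0.0063), no count filter (0.0045), a filter of 10 counts per library (0.013), scaling by the total alone (0.030) and the size factors of DESeq2 in edgeR (0.0059).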
